A study of Drosophila melanogaster with 2 samples.

Results

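The 8 genes eve, ftz, hry, run, prd, slp1, slp2 and opa are the classical pair-rule genes of Drosophila melanogaster other than odd. They were taken by name from the annotation, 8 of 13945 protein-coding genes on the main arms, and hry is the gene long written hairy (h). The question put to the data was where Sob, a zinc-finger relative of the pair-rule protein Odd-skipped, was found on chromatin in and around them. Chromatin immunoprecipitation and sequencing had been done on whole embryos aged 0 to 24 h of the strain sob-GFP, an insertion that targets sob and yields a Sob-eGFP fusion, with an antibody to GFP. The design had 1 group, no second genotype or treatment, and 2 biological replicates, and a separate control library was named for it. Which promoter drives the fusion, and whether untagged Sob was present too, is not stated in the labels. The chromatin had been sonicated, and the replicates are biological ones by their labels.

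Pair-rule genes turn the broad gradients of the early embryo into stripes, and those stripes then set the segment boundaries. The primary members (hry, run and eve) read the gap proteins through separate stripe enhancers. Of the later members, ftz, prd, slp1 and slp2 take their stripes in large part from other pair-rule proteins, while opa has no early stripes. Odd itself is a repressor within this network. Striped expression passes early, so embryos pooled over the whole of embryogenesis hold mostly later chromatin, in which several of these genes are used again, above all in the nervous system. A weak peak in whole embryos cannot tell strong binding in few cells apart from weak binding in many.

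The values are those of the deposited peak lists. The combined list was made from both replicates and thresholded by the irreproducible discovery rate (IDR, the expected share of peaks that do not repeat) and held 7002 peaks, ranked here from the highest signal down. Its lowest score corresponds to an IDR of 0.01. Its median signal was 133.4 and its highest 4455, in units of the peak caller that carry no stated scale. A longer ranked list of 117372 peaks, with a median signal of 27.3, holds the weaker ones. Replicates 1 and 2 had thresholded lists of their own with 4490 and 4626 peaks, and ranked lists with 91315 and 97987. Signals are compared only within a list. Where a peak's signals in several lists are given together, their scales may differ, and nothing is read from the gap between them. The number of reads is unknown, so no value carries a counting interval, and the signal of a single peak has no error of its own.

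Sob peaks lay near some of these genes and not near others. Taking summits in the gene body or within 10 kb of it, 4 of the 8 genes had at least 1 peak of the combined list, namely hry, eve, slp1 and slp2, and 4 had none, namely ftz, run, prd and opa. Of all protein-coding genes, 73.4% had such a summit. The 8 windows together spanned 187.1 kb and held 8 distinct peaks, which is 4.28 peaks per 100 kb, against 5.23 per 100 kb over the main arms. At promoters, taken as 1000 bp to either side of any transcription start site (TSS), hry alone had a summit, 1 of 8 genes against 32.9% of all protein-coding genes. The number of peaks per gene had a median of 0.5 over the 8 genes and of 2 over all protein-coding genes. Since the genes were named and not sampled, no test was made of these counts.

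**Figure D1:**
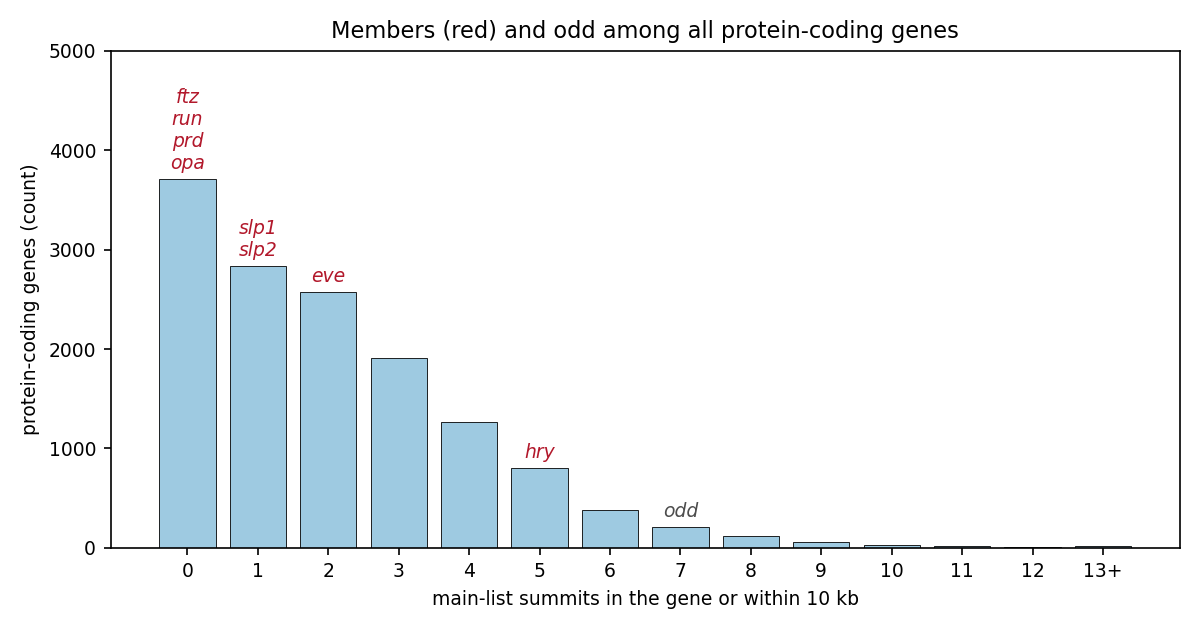
Bars give the number of protein-coding genes (vertical axis) by their number of combined-list summits in the gene or within 10 kb (horizontal axis, with 13 or more in the last bar). The names ftz, run, prd and opa stand over the 3710 genes with 0 summits, slp1 and slp2 over the bar for 1, eve over that for 2 and hry over that for 5, and odd, with 7, is shown for comparison.

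Peaks were also shared with neighbours. Counting only peaks whose nearest coding TSS was the gene's own, hry kept its 5 peaks and slp2 had 1, so 2 of the 8 genes had a peak of their own, against 30.1% of protein-coding genes. Of the 8 peaks, 7 lay below the median signal of the combined list. The exception was the peak between slp1 and slp2.

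**Figure D2:**
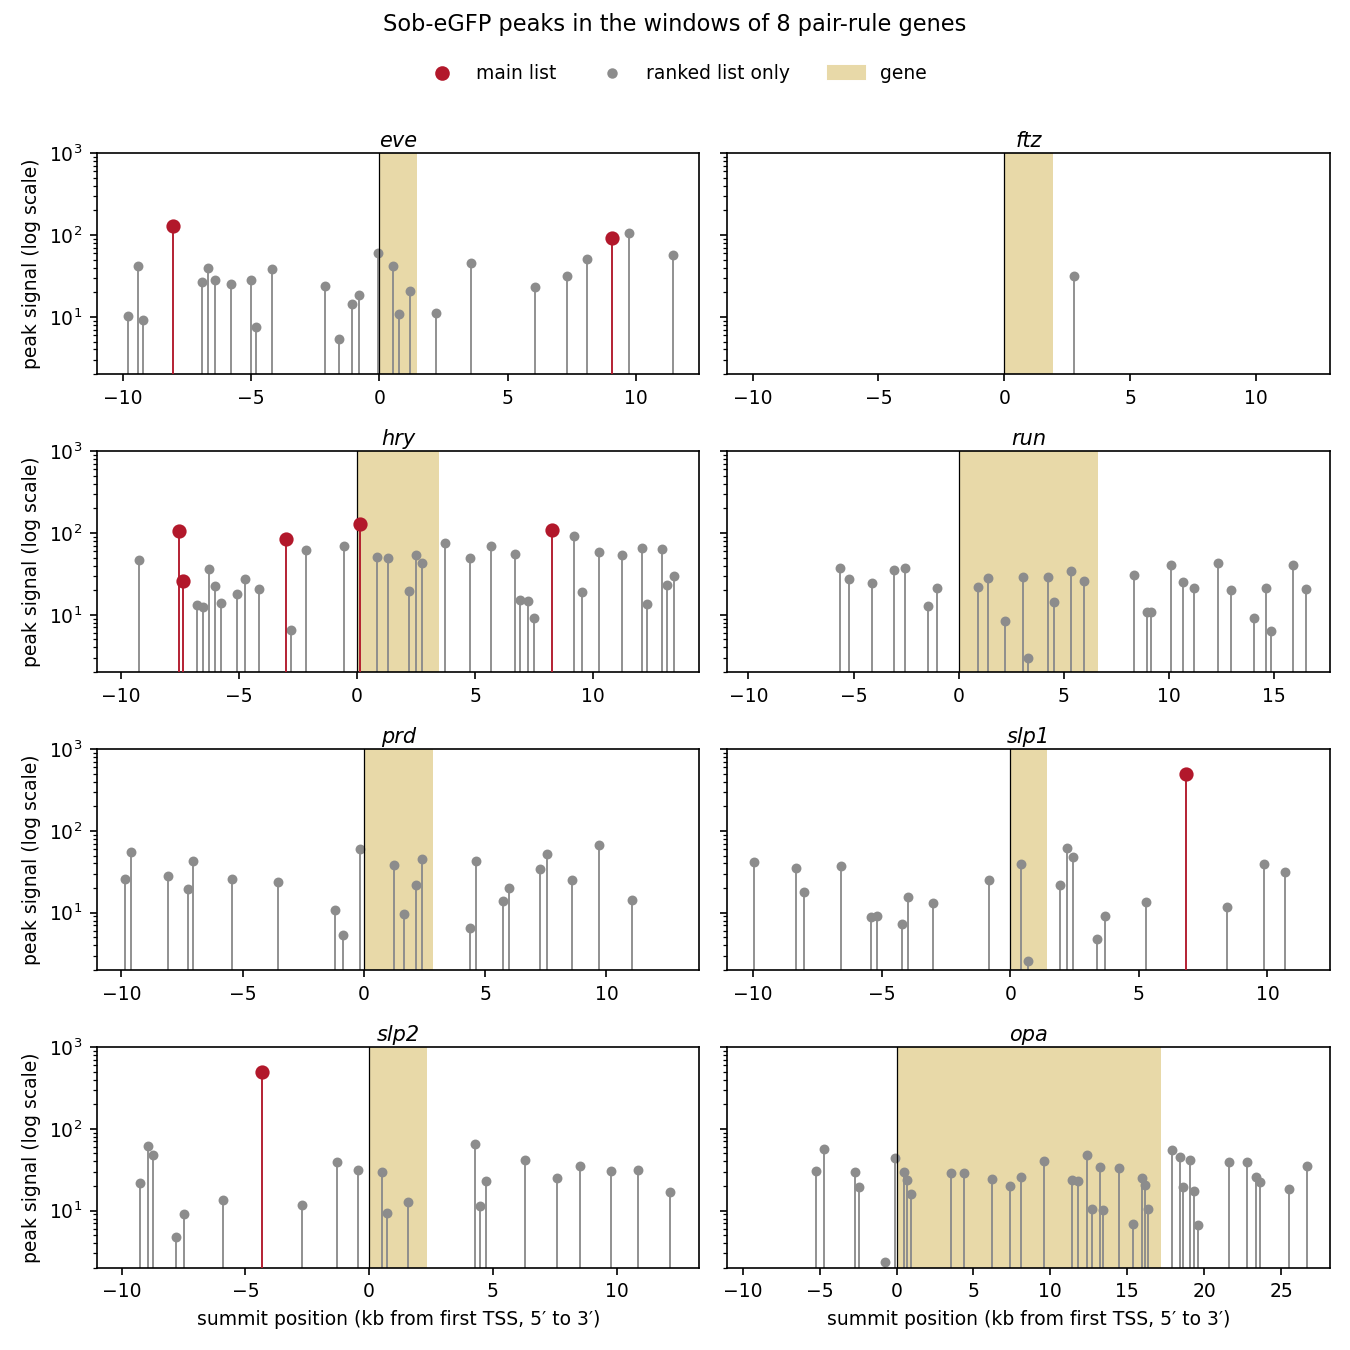
Each panel shows 1 gene, with the summit position in kb from its first TSS on the horizontal axis and the peak signal on a logarithmic vertical axis. Red stems are peaks of the combined list, grey stems are peaks of the ranked list alone, and the shaded band is the gene. The ftz panel holds 1 grey stem, while the other panels hold between 22 and 38 stems.

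Among the primary genes, hry carried the most peaks of the combined list. It encodes a basic helix-loop-helix repressor that works with the corepressor Groucho. The gene (FBgn0001168) lies on the plus strand of 3L from 8675759 to 8679253 in dm6, and no other coding gene starts in its window. Its 5 peaks put it above 88.2% of protein-coding genes by count, and 11.8% of them had 5 or more. Of the 5 peaks, 2 overlapped and fell on the same peak in each replicate's ranked list. The count depended on the list, with 2 summits at hry and 2 at eve in the conservative list, 0 at hry and 1 at eve in replicate 1's own list, and 1 at hry and 0 at eve in that of replicate 2.

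The strongest of them sat on the promoter, with a signal of 129.0 (chr3L:8675688-8676067), at place 3655 of the combined list. Its summit lay in the 5′ UTR, 77 bp upstream of the second of the gene's 2 TSSs. In replicate 1 the peak had a signal of 41.2 at place 7123 of its ranked list, and in replicate 2 a signal of 93.4 at place 2337. It passed the threshold in replicate 2 alone, with an IDR of 0.000719, against 0.0545 in replicate 1.

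The other peaks lay between genes on both sides. A peak downstream had a signal of 109.0 (chr3L:8683824-8684203, summit 8059 bp past the nearest hry TSS), with 41.0 in replicate 1 and 65.6 in replicate 2. Upstream, a peak of 105.3 (chr3L:8668021-8668400) had its summit 7548 bp from the TSS, with 43.6 in replicate 1 and 56.1 in replicate 2. A peak of 26.2 (chr3L:8668228-8668607) overlapped it by 173 bp, and in each replicate's ranked list the same peak covered both. The last, at 84.1 (chr3L:8672570-8672949, 2999 bp upstream), had 59.9 in replicate 2 and no overlapping peak in the ranked list of replicate 1. None of these distal peaks was in either replicate's own thresholded list.

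The sequence at hry is shown for the promoter peak upstream of the first TSS and for the strongest distal summit on either side, all on the plus strand of RefSeq release 6, which is also the strand of the gene. No motif searched was found in any of the 3, so none carries capitals.
hry promoter, chr3L:8675688-8675758: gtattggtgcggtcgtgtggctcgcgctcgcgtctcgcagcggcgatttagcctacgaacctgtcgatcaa
hry upstream summit, chr3L:8668161-8668261: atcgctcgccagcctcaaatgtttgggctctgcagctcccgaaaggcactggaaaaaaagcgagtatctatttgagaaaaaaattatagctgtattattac
hry downstream summit, chr3L:8683964-8684064: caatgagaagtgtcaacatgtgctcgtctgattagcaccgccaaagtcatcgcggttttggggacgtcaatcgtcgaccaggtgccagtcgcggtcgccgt
The promoter stretch shown ends before the summit of its peak, at 8675878, and was 60.6% G and C. The window within 50 bp of that summit, which is not shown, was 38.6%. The upstream and downstream summit windows shown were 41.6% and 56.4%. Windows of the same kind around all summits of the list held 39.4% ± 11.1 (SD over 7001 summits).

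In the ranked list, which includes the peaks above, hry also had the highest density of the 8 genes. Its window held 38 ranked-list summits, 33 of them not in the combined list, or 16.2 per 10 kb, a density above that of 95.4% of protein-coding genes, whose median was 12. Of the 33, 3 passed an IDR of 0.05, including peaks of 75.2 and 69.5 downstream of the gene at 3522 and 5468 bp from the nearest TSS. Replicate 1 had 35 ranked summits there and replicate 2 had 33.

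The gene run, which encodes the founding Runt-domain transcription factor, had no peak of the combined list. It lies on X from 20690670 to 20697321 (FBgn0003300, plus strand, 2 TSSs), and no other coding gene starts in its window. The nearest peak of the combined list was 28.8 kb outside the gene, a signal of 77.4 at the promoter of CG1835. Of its 29 ranked-list summits the highest was 42.9 (chrX:20702799-20703178, 8550 bp past the nearest TSS), at place 29868 with an IDR of 0.114, and 0 passed an IDR of 0.05. The replicates differed here, with 24 ranked summits in replicate 1 and 2 in replicate 2. In replicate 2 a stretch of 32026 bp over the gene held no ranked summit, while in replicate 1 the longest empty stretch touching the gene was 2506 bp.

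At eve, which encodes a homeodomain repressor, the peaks of the combined list were at the promoters of its neighbours. The gene (FBgn0000606) lies on the plus strand of 2R from 9979319 to 9980795. One peak, with a signal of 127.6 (chr2R:9971074-9971453), had its summit 8055 bp upstream of eve and 94 bp from the nearest TSS of CG12134, within the 5′ UTR of that gene. It had 79.8 at place 2859 in replicate 1, where it passed the threshold, and 56.2 at place 5746 in replicate 2, where its IDR was 0.0112. The other, at 92.5 (chr2R:9988210-9988589), lay 9081 bp downstream of the eve TSS and 759 bp from that of TER94, which encodes the AAA ATPase known in mammals as VCP, and its summit fell in an exon of the non-coding gene lncRNA:CR45324. It had 34.9 in replicate 1 and 56.8 in replicate 2 and was in neither thresholded list.

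At the eve start site itself the ranked list had a peak of 61.1 at −44 bp (chr2R:9979085-9979464), at place 13727 with an IDR of 0.427. Replicate 2 had 40.5 there and replicate 1 no overlapping peak. The highest weak peak in the window, 107.1 at place 4921, was again at TER94, 109 bp from its TSS, and had an IDR of 0.658, and it was not in the combined list although its signal was above that of some listed peaks. The eve window held 27 ranked summits, 12.6 per 10 kb, at percentile 57.6 of protein-coding genes.

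Of the later genes, ftz had the fewest peaks of any kind. It encodes a homeodomain protein that acts with the nuclear receptor Ftz-F1, and it sits inside the Antennapedia complex on 3R from 6864324 to 6866244 (FBgn0001077, plus strand). No peak of the combined list lay within 42 kb of it, and the nearest, at 93.9, had Antp as its nearest coding gene. Its window of 21.9 kb held 1 ranked-list summit, with a signal of 31.4 at 2767 bp (place 49765, IDR 0.615), where replicate 1 had 18.9 and replicate 2 no overlapping peak. That is 0.456 per 10 kb, a density below that of all but 3.75% of protein-coding genes. The reference sequence of the window held 0 unknown bases.

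The empty stretch around ftz was wider than the window. From 20 kb upstream to 40 kb downstream of its TSS, a span picked after the counts had been seen, the combined ranked list had 1 summit, replicate 1 had 13 and replicate 2 had 2. The mean density of the main arms would put 51.8, 40.4 and 43.8 summits into 60 kb of these lists. On the far sides of the span, 10-kb bins held 8 to 12 summits of the combined ranked list between 60 and 20 kb upstream, and 5 to 11 between 40 and 80 kb downstream, while the bins from 80 to 60 kb upstream held 1 and 7. What sets this stretch apart was not tested. The stretch without a combined ranked summit that covers the gene was 26230 bp long, against 961 to 2704 bp at the other 7 genes, and 362 of 115507 such stretches on the main arms were longer.

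**Figure D3:**
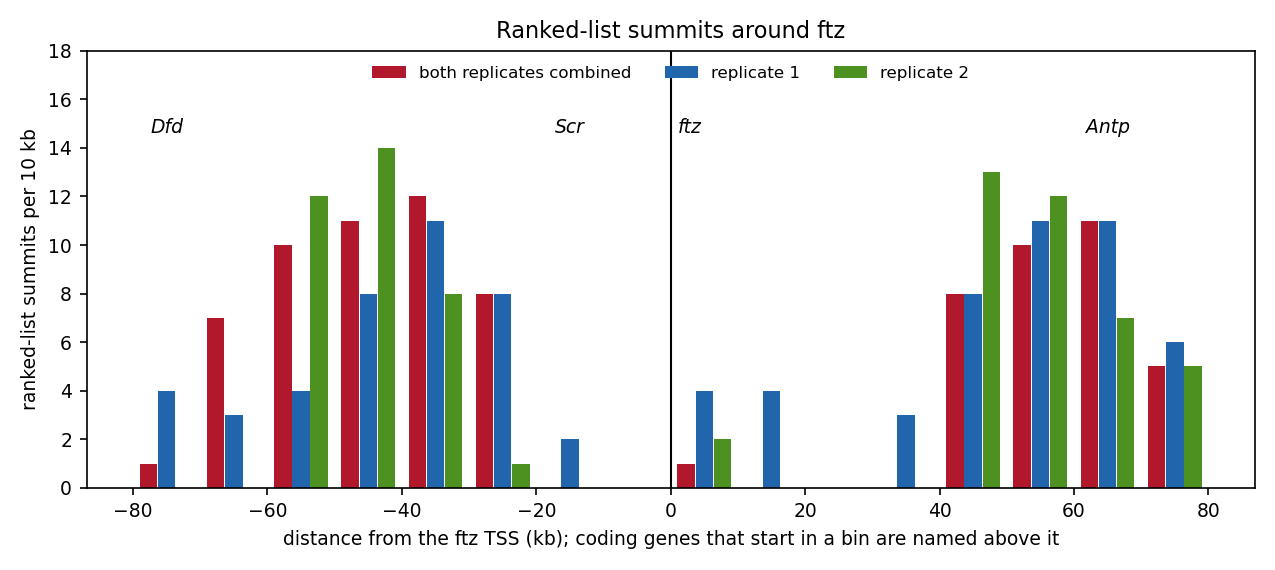
Bars give ranked-list summits per 10 kb (vertical axis) by distance from the ftz TSS in kb (horizontal axis), for both replicates combined and for each replicate, and coding genes that start in a bin are named above it. From 20 kb upstream to 40 kb downstream the combined bars show 1 summit in all, while bins farther out reach 12.

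For prd, which encodes a protein with a paired domain and a homeodomain, the nearest peak of the combined list lay just outside the window. The gene lies on the minus strand of 2L from 12082995 to 12085827 (FBgn0003145, 2 TSSs). The peak, at 110.0 (chr2L:12096313-12096692), was 10676 bp from the gene, 676 bp beyond the window, and 8 bp from the TSS of CG6712. Inside the window the highest of 23 ranked summits was 66.4 (IDR 0.0401) at the promoter of CG14947, with 34.5 in replicate 1 and 29.2 in replicate 2. At the promoter of prd itself a peak of 59.7 lay at −156 bp (chr2L:12085793-12086172, place 14423), in an exon of the antisense gene asRNA:CR44592, and its IDR of 0.0579 was close to the looser threshold. There replicate 1 had 22.3 and replicate 2 had no overlapping peak.

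The strongest peak of the set lay between slp1 and slp2. These neighbours encode closely related forkhead-domain proteins and lie in the same direction on 2L, slp1 from 3825675 to 3827099 (FBgn0003430) and slp2 from 3836840 to 3839185 (FBgn0004567), both on the plus strand. The peak had a signal of 493.6 (chr2L:3832396-3832623), at place 408 of 7002, among the highest 5.83%. It was in the conservative list and in both replicates' own lists, with 307.8 at place 322 of the ranked list in replicate 1 and 186.5 at place 652 in replicate 2. Its summit lay 6840 bp downstream of the slp1 TSS and 4325 bp upstream of that of slp2, with no annotated start, exon or intron on it. It was 228 bp wide, against a median of 380 bp in the list. It is a single peak and stands in the windows of both genes.

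The sequence within 50 bp of this summit, on the plus strand, is shown because it holds 2 copies of GGTCACACT (capitals), the core of the promoter element bound by the zinc-finger protein M1BP. The start of the second copy is 35 bp past that of the first, with their centres 15 bp before and 20 bp after the summit.
slp1-slp2 summit, chr2L:3832465-3832565: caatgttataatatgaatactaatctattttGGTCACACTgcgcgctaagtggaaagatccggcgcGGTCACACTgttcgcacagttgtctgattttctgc
This motif was searched only after the sequence had been seen. It was found within 50 bp of 78 of 7001 summits (1.11%), and 1 of these windows, the one between slp1 and slp2, had 2 copies. Within 100 bp of a summit, 2 windows of the list had 2 copies. The median signal was 126.7 with a match and 133.5 without, and 1 other peak with a match had a higher signal than the slp peak.

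Nothing of that strength lay at the promoters of either slp gene. Within 1000 bp of the slp1 TSS the highest ranked-list signal was 39.5, and at slp2 it was 31.7, with an IDR of 0.545 and 0.656. The next weak peak past slp2 had a signal of 65.9 (chr2L:3840918-3841297, 4268 bp downstream of its TSS, IDR 0.0657), with 45.5 in replicate 1 and 21.1 in replicate 2. Of the 22 ranked summits in each gene's window, 1 passed an IDR of 0.05, the intergenic peak itself.

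The gene opa, which encodes a zinc-finger protein of the Zic family that is expressed broadly and not in stripes, had the longest window and no peak of the combined list. It lies on 3R from 4852813 to 4869979 (FBgn0003002, plus strand), 17.2 kb in length, and the nearest listed peak was 38.5 kb outside it, a signal of 100.6 nearest to Gnf1. The window held 38 ranked summits, 10.2 per 10 kb, with a highest signal of 57.4 at −4689 bp (place 15729, IDR 0.657), and 0 passed an IDR of 0.05. Replicate 1 had 31 ranked summits there and replicate 2 had 13. The coding gene laf also starts in this window. At 5 of the 8 genes a ranked-list peak passed an IDR of 0.05, against 81.5% of protein-coding genes.

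The odd-skipped family motif was searched on both strands as ACAGTAGC and as its core CAGTAGC, which the longer motif contains. Neither was found within 50 bp of the 8 combined-list summits, and over all 7001 summits they were found at 0.129% and 0.743%. In the 190 ranked-list windows of the 8 genes, 2 held the core, 1 of them as the full motif, while 0.932% and 0.203% of the 115513 ranked windows on the main arms held the core and the full motif. Both windows are shown, on the plus strand with the match in capitals.
opa weak summit, chr3R:4875526-4875626: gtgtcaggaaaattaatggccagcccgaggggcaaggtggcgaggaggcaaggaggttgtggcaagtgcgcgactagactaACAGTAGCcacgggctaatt
hry weak summit, chr3L:8671560-8671660: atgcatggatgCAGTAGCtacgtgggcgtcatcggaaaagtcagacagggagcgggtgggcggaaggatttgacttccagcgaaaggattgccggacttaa
The opa summit lay between genes downstream of opa, 22763 bp from its TSS, on the side where the coding gene laf also starts. It had a signal of 38.8 (place 36084, IDR 0.198), with 27.6 in replicate 1 and 12.2 in replicate 2. The hry window lay upstream of hry, at −4149 bp, and had a signal of 20.8 (place 74001, IDR 0.812), with 17.3 in replicate 1 and 10.6 in replicate 2. Neither was near the threshold.

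Most copies of the core around these genes lay more than 50 bp from any ranked summit. There were 4 in the hry window, 3 each in those of opa and slp2, 2 in that of prd, 1 in that of eve and 0 in those of ftz, run and slp1, and over the main arms the core occurred 0.828 times per 10 kb. At hry this was 1.7 per 10 kb, and the copy closest to a combined-list summit was 1186 bp from it. The other motifs searched were CAGGTAG (Zelda), TATCGATA (DREF and BEAF-32), GAGAG (GAGA factor), TAATTA (homeodomain), CACGTG (E-box), AACCACA (Runt domain) and TCAAGGTCA (Ftz-F1). None of them was found within 50 bp of the 8 summits, with shares over all summits between 0.0571% for TCAAGGTCA and 12.4% for GAGAG.

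Promoter signal gave an order of the genes that uses the weak peaks as well. The highest ranked-list signal within 1000 bp of a TSS was 129.0 at hry, 61.1 at eve, 59.7 at prd, 44.2 at opa, 39.5 at slp1, 31.7 at slp2 and 28.8 at run, and ftz had no summit there. Among protein-coding genes these stood at percentile 77.5 for hry, 53.4 for eve, 52.5 for prd and 37.7 for opa. Below them were slp1 at 32.6, slp2 at 25.2, run at 23.0 and ftz at 0. The 0 is set by rule, since all genes without such a summit share the lowest place, and 85.1% of genes had one. The median over the 8 genes was percentile 35.2 in the combined ranked list, 43.7 in replicate 1 and 33.3 in replicate 2.

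Below hry, parts of this order changed between replicates. In replicate 1, hry stood at 69.3, eve at 51.3, ftz at 50.7, prd at 45.9, opa at 41.5, run at 40, slp1 at 35.4 and slp2 at 29.8. The peaks behind these replicate 1 values had IDRs from 0.264 at hry to 0.889 at run, prd and slp2, with 0.79 at ftz, all far from the threshold. The hry value came from a summit at −601 bp and the eve value from one at 505 bp, not from those at −77 and −44 bp. In replicate 2, hry stood at 84.9, opa at 62.3, eve at 57.7, slp2 at 35.4 and slp1 at 31.3, and ftz, run and prd had no promoter summit. There the IDR was 0.000719 at hry and from 0.333 at eve to 0.652 at opa for the others. The genes slp1 and slp2 changed places between replicates, while eve stood above prd in both. There is 1 value per replicate, and no order was tested.

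**Figure D4:**
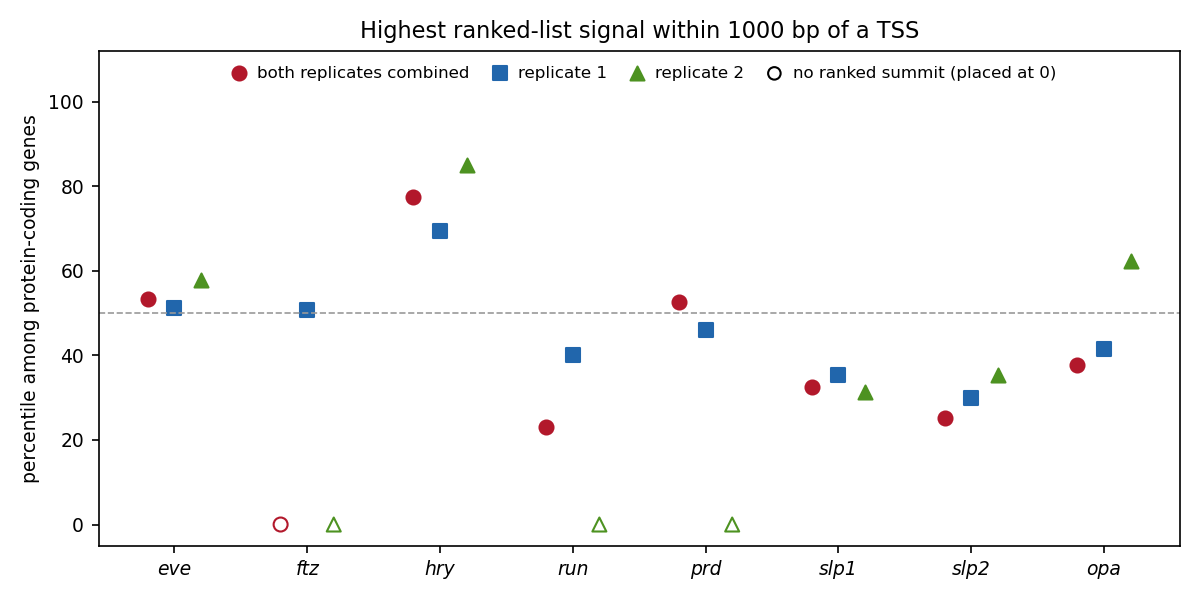
For each gene (horizontal axis) the points give the percentile, among 13945 protein-coding genes, of its highest ranked-list signal within 1000 bp of a TSS, in the combined ranked list and in each replicate's own, with open symbols at 0 where no summit was found. The 3 hry points, from 69.3 to 84.9, lie above every other point in the plot.

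The 8 peaks repeated unevenly between replicates. One of them, the slp peak, was in both replicates' own thresholded lists, against 43.4% of the peaks in the combined list. Replicate 1's own list held 2 of the 8, the slp peak and the eve peak at CG12134, and that of replicate 2 held 2, the slp peak and the hry promoter, against 60.2% and 61.5% of the combined-list peaks. Of the 8, 5 overlapped a peak of the conservative list, both overlapping hry peaks among them, against 68.4% of the combined-list peaks, a share near the background.

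**Figure D5:**
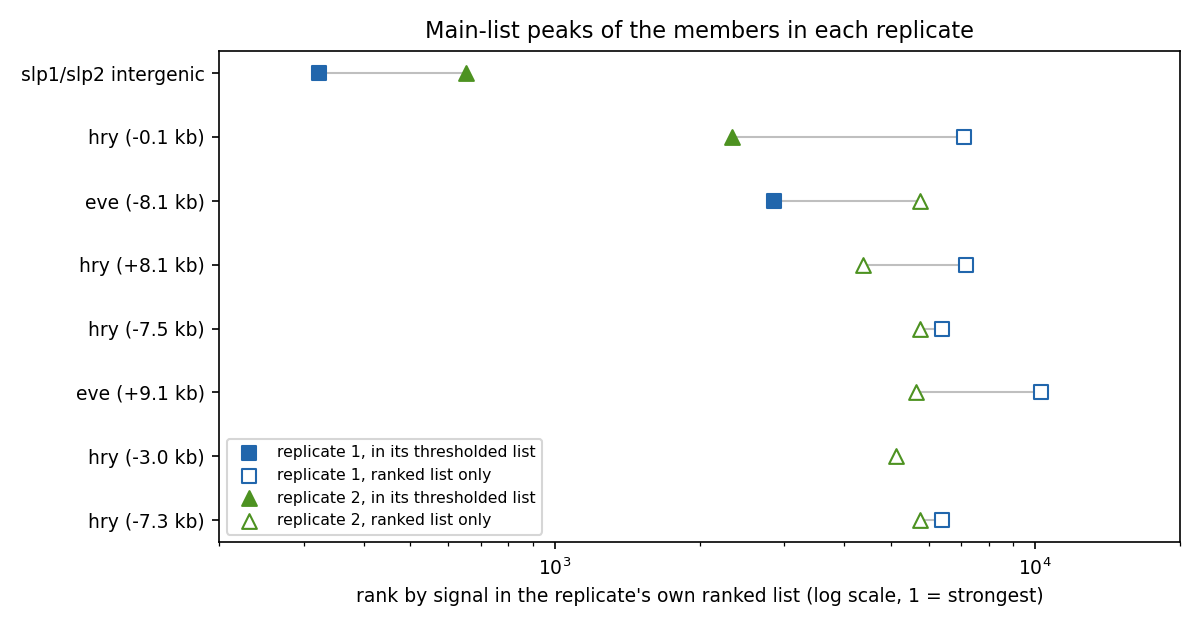
Each line is 1 of the 8 combined-list peaks, and the symbols give its rank by signal in the ranked list of each replicate (horizontal logarithmic axis, 1 is strongest), filled where it passed that replicate's threshold. The slp peak is at 322 and 652 with both symbols filled, while the other 7 peaks lie beyond 2000 wherever they have a rank and have at most 1 filled symbol. Distances beside the names are from the gene's nearest TSS.

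The remaining classical pair-rule gene, odd, had 7 combined-list peaks in its window, more than 96.7% of protein-coding genes, with signals from 10.9 to 199.1. Of these, 2 were within 1000 bp of its TSS. These 2, with signals of 148.7 and 125.3, overlapped each other and fell on the same peak in the ranked list of replicate 2. The odd peaks of 98.4 and 10.9 also overlapped, and fell on the same peak in each replicate's ranked list. The 7 are therefore not all separate sites.

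Other genes of the segmentation cascade were counted the same way, as a description. Of 4 matched maternal and early activators, all 4 had a summit within 10 kb and 2 at a promoter, bcd (283.3), the anterior morphogen gene, and cad (148.2). Of 11 gap and head gap genes 6 had one within 10 kb (54.5%) and 2 at a promoter, cnc (150.5) and oc (127.5). Of 12 segment polarity targets 7 had one within 10 kb (58.3%) and 4 at a promoter, the Wnt regulator nkd (409.5), the Wnt ligand gene wg (176.9), the Hedgehog receptor gene ptc (159.4) and the engrailed paralogue inv (103.3).

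The 8 matched partners and modifiers of pair-rule proteins all had a summit within 10 kb, and 5 (62.5%) had one at a promoter. These were gro, the corepressor that Hairy recruits (574.6, place 299), lilli (271.6), Bgb, a partner of Runt-domain proteins (268.9), ftz-f1, the partner of Ftz (161.3), and Ppa, which acts on the Paired protein (138.6). The pair-rule genes themselves stood at 50% within 10 kb and 12.5% at a promoter, and all protein-coding genes at 73.4% and 32.9%. At promoters the segment polarity targets, at 33.3%, were near the share of all genes. These lists are short, were chosen with earlier results of these data known, and were not tested against each other. The shares make no allowance for gene length or the number of TSSs.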

How the data were processed

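Per the deposited file lists, every peak list is on dm6 and was made from alignments of 1 or both replicates with a control, plus a region file for thresholded lists. Aligner and peak caller: not given in the sources used here. The 2 deposited text files list files and hold no measurement. The authors' signal per peak has no stated scale. The deposited score is the IDR scaled to end at 1000, with a lowest value of 830 in the combined list, and a deposited −log10 column of the ranked lists holds the global IDR. The meaning of these columns was taken from the narrowPeak and IDR formats.

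Gene models came from Ensembl release 115 (version 6.54) and sequence from RefSeq release 6, in which all 8 genes had the same coordinates. Positions count from 1. Peaks overlapped when sharing at least 1 bp. A replicate's value at a peak is its highest overlapping ranked-list signal. A motif counted when it lay whole within 50 bp of a summit. Percentiles give the share of protein-coding genes with a lower value, with genes lacking a summit lowest. Of 37 other segmentation genes listed, 2 matched no single gene and were left out. No test was run, since there is 1 group and the members were chosen by name. The counting was tested on simulated data with known answers in Python 3.11.15 (pandas 2.3.3, NumPy 2.4.6). Named were the 8 genes, the coding genes nearest to their peaks, odd, and listed genes with a promoter summit. CG1835, CG6712, CG14947, Gnf1, laf, Antp and the non-coding genes were named after values were seen. The members and lists were chosen with earlier results of these data known. The alternatives were other lists, windows, promoter widths, overlaps and motif windows.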

Additional observations from a re-analysis of the deposited data

How the results depend on the processing

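No paired analysis was possible because there is 1 group. Of the 8 genes, 4 had a peak in the conservative list (65.5% of protein-coding genes), 3 in replicate 1's own list (64.2%) and 3 in that of replicate 2 (63.2%). There were 2 with the stronger 50% of peaks (58.9%), 2 with windows of 5 kb (61%), and 5 with windows of 20 kb (85.5%), where prd entered. With gene bodies only there was 1 (17.5%), and with the nearest coding TSS required there were 2 (30.1%), both near the background. By each list's own summits, the 8 peaks became 5 in the conservative list, with 2 at eve, 2 at hry and 1 between slp1 and slp2. These are not the same 5 as those that overlapped it above, since the eve peak of 92.5 did not. The count was 1 with the stronger 50% of peaks, 1 with gene bodies only, 4 at 5 kb and 16 at 20 kb, and 2 with either replicate left out. The promoter count of 1 fell to 0 in the conservative list and with the stronger 50% of peaks, and was 0 to 1 with a replicate left out. Peaks shared by both replicates numbered 4, not 1, when each ranked list was read down to place 7002. The 4 include both overlapping hry peaks, which fell on the same peak in each replicate. For the 4, and for the peak and promoter counts under other settings, no share over all peaks or genes is given. These counts are therefore not set against a background. The median promoter percentile of 35.2 was 45.9 with promoters of 500 bp, 24.6 with 2000 bp, and 33.3 to 43.7 with a replicate left out. The causes were not tested. The core CAGTAGC was at 0 of the 8 summits with windows of 25, 50 or 100 bp. GAGAG was at 0 with 25 or 50 bp and at 1 with 100 bp, against 25.1% of all summits at that width. No other motif searched from the start changed its count. The slp peak was the only one of the 8 in both replicates' lists and among the stronger 50%. The unknown depth limits every statement on weak or missing peaks.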
